A study of Mus musculus with 6 samples.

Results

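Snap25, Stx1a, Vamp1, Vamp2, Cplx1 and Cplx2 encode the neuronal SNARE proteins and complexins that carry out fusion of synaptic vesicles. They were taken by name from the table of 31245 mouse genes, and all 6 were found and passed the filter on low values that 16653 genes passed. The samples were primary cultures of mouse cortical neurons, dissected from pups on the first day after birth and kept in Neurobasal A medium with B27. On day 12 or 13 in vitro, 3 cultures received NGPF2 at 1.5 ng/ml and 3 received PBS as vehicle, each for 2 h. The labels say no more of what NGPF2 is, and name no strain, genotype or sex. Poly(A) RNA of whole cultures was sequenced, so any cell that grew beside the neurons was measured with them. The series states that the cultures are 3 pairs from independent experiments, and libraries of the same replicate number are treated as a pair below.

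Fusion of a vesicle with the presynaptic membrane is driven by a bundle of helices that a vesicle SNARE, synaptobrevin (VAMP), forms with the target-membrane SNAREs syntaxin-1 and SNAP-25. Vamp2 is the main synaptobrevin of the forebrain, whereas Vamp1 is best known from brainstem, spinal cord and certain interneurons. Complexins are small proteins that clamp onto the assembled bundle and make release follow the calcium signal; in cortex Cplx1 is known mainly from inhibitory and Cplx2 mainly from excitatory neurons.

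On the mm10 build, with GENCODE M21 gene models, Vamp1 (ENSMUSG00000030337) spans chromosome 6 from 125215551 to 125245964 and Vamp2 (ENSMUSG00000020894) chromosome 11 from 69088490 to 69092384, both on the plus strand. Stx1a (ENSMUSG00000007207) lies on chromosome 5 from 135023482 to 135051100 and Snap25 (ENSMUSG00000027273) on chromosome 2 from 136713453 to 136782428, again on the plus strand. Cplx1 (ENSMUSG00000033615) spans chromosome 5 from 108518554 to 108550024 on the minus strand, and Cplx2 (ENSMUSG00000025867) chromosome 13 from 54371349 to 54383917 on the plus strand. No exon of these 6 genes overlapped an exon of another annotated gene.

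Promoters are shown for the 3 genes that rose with NGPF2 in replicates 2 and 3, as described below. The RefSeq table (GRCm38.p6) holds 4 of the 6 genes and gives 250 bases before to 50 after each start. It was searched on both strands for GGGCGG (GC box), TGACG (core of the cyclic AMP response element) and CCAAT, and the capitals mark the matches, which did not overlap one another in the sequences shown.
Vamp1, chr6:125215331-125215630, plus strand: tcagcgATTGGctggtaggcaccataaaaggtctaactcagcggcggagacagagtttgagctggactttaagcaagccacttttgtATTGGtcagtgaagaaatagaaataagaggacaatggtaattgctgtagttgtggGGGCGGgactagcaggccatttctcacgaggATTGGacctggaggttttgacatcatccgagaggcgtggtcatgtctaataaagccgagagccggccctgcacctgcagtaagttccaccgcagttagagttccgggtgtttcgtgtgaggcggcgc
Cplx1, chr5:108549978-108550277, minus strand: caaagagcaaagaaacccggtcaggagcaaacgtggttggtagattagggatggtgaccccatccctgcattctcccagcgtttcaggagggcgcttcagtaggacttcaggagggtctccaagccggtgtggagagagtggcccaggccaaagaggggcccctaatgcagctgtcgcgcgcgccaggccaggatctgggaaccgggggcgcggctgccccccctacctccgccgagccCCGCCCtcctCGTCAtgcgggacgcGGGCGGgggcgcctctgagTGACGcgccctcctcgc
Cplx2, chr13:54302306-54302605, plus strand: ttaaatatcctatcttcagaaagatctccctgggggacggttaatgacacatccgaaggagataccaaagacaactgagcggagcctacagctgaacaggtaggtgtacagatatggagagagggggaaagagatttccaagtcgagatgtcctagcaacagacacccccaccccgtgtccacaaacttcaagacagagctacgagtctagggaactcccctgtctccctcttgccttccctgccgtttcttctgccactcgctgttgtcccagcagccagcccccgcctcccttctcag
The Vamp1 window holds 1 GC box, 108 bases before the start, and 3 CCAAT matches on the reverse strand, 244, 163 and 77 bases before it. The Cplx1 window holds 2 GC boxes and 2 TGACG matches. None of the 3 motifs is in the Cplx2 window. That window ends at 54302605, far upstream of the GENCODE start of the gene at 54371349. Its lack of matches thus says nothing of the sequence at the GENCODE start. Among 32851 promoters of the same 300 bases, 35.7% hold GGGCGG, 20.8% TGACG and 37.4% CCAAT. No motif among those searched is in all 3 windows, although the GC box is in those of both Vamp1 and Cplx1. The GC contents of the Vamp1, Cplx1 and Cplx2 windows are 51.7%, 67% and 53.3%, against a median of 52.7% over all promoters.

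Levels below are normalized counts, that is, a gene's count divided by the size factor of its library. A difference on the log2 scale was taken after 1 was added to each level. Library totals ran from 17478070 to 45193691 counts, with the 2 libraries of replicate 1 the deepest. Every member had at least 1615 counts in every library, so counting error was small beside the larger differences between cultures. Replicates 2 and 3 of both groups carry library names with a common stem that replicate 1 of both groups lacks. Within a group, counts of replicates 2 and 3 differed by a chi-square of 12.7 (vehicle) and 13.9 (NGPF2) per degree of freedom. Other pairs within a group differed by 129 to 177, so no library was a copy of another of its group. This measure grows with depth, and the replicate 1 libraries were the deepest. By this measure replicates 2 and 3 were closer to each other than to replicate 1, and these values do not show that they are independent. The 14 pan-neuronal markers summed to between 179232 and 251887 normalized counts in every library, so neuronal RNA was abundant throughout. Each result is given for all pairs and for replicates 2 and 3 alone. Since RNA came from whole cultures, fewer cells of a type and less RNA per cell cannot be told apart in any of these values.

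Of the vesicle SNAREs, Vamp1 stood at 1135, 3119 and 3195 normalized counts in vehicle replicates 1, 2 and 3 and at 1033, 5361 and 4478 in the matching NGPF2 cultures. Vamp2 stood at 39715, 34065 and 33864 with vehicle and at 39659, 36294 and 36361 with NGPF2. Vamp1 was thus lowest in both cultures of replicate 1, where Vamp2 was highest. In each of replicates 2 and 3 the NGPF2 culture had more Vamp1 than either vehicle culture, by 1.72-fold and 1.40-fold within its pair, whereas the replicate 1 pair gave 0.910-fold. Vamp2 differed by 0.999-fold, 1.07-fold and 1.07-fold in pairs 1, 2 and 3.

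Among the target-membrane SNAREs, Stx1a, which encodes syntaxin-1A, stood at 4818, 6153 and 6046 normalized counts with vehicle and at 4975, 7257 and 7049.7 with NGPF2. Snap25 stood at 22023, 48596 and 50015 with vehicle and at 22402, 51635 and 53910.4 with NGPF2. Both were lowest in replicate 1. The NGPF2 culture of every pair was slightly above its vehicle culture, by 1.03-fold, 1.18-fold and 1.17-fold for Stx1a and 1.02-fold, 1.06-fold and 1.08-fold for Snap25.

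The complexins were split between the replicates. Cplx1 stood at 26231, 15097 and 14823 normalized counts with vehicle and at 25664, 27449 and 24803 with NGPF2. Cplx2 stood at 13624, 34039.5 and 33163 with vehicle and at 14242, 51672 and 51572 with NGPF2. Cplx1 was low in 2 cultures only, vehicle replicates 2 and 3, and the other 4 lay between 24803 and 27449. Cplx2 formed 3 levels, with both replicate 1 cultures lowest, vehicle replicates 2 and 3 in between and NGPF2 replicates 2 and 3 highest. Within pairs, the fold was 0.978, 1.82 and 1.67 for Cplx1 and 1.05, 1.52 and 1.56 for Cplx2.

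**Figure D1:**
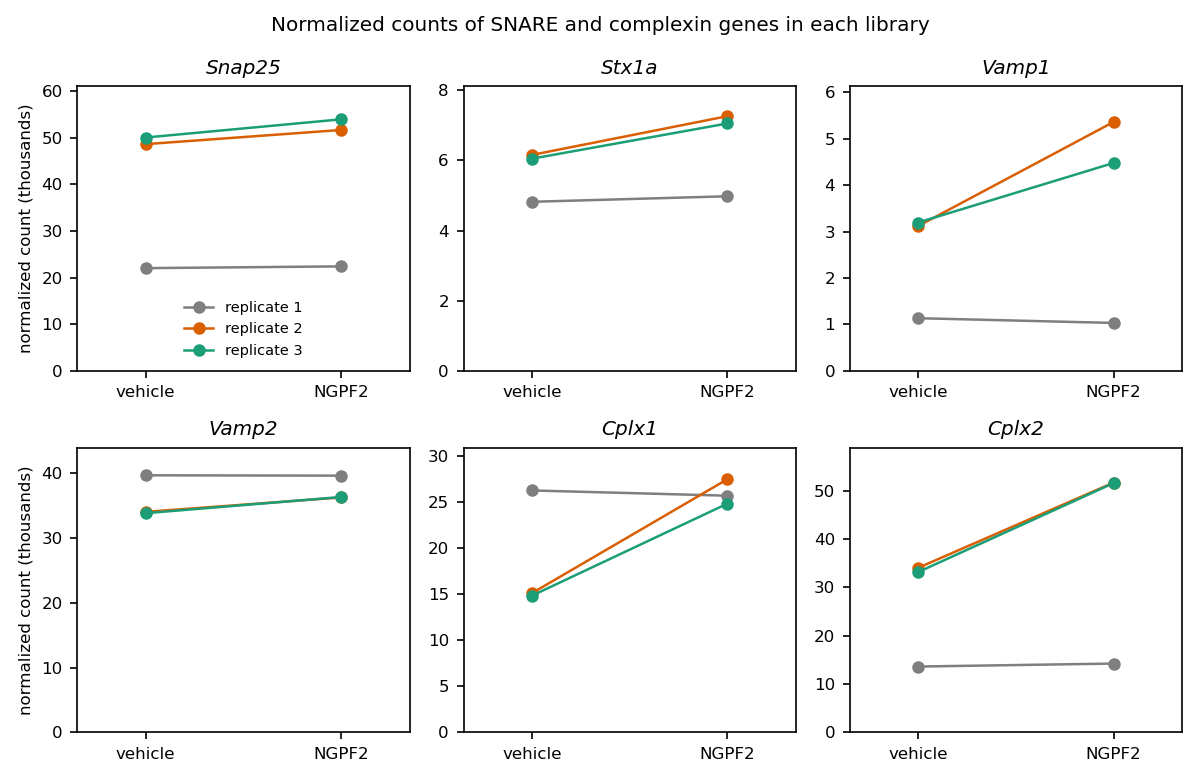
Normalized counts (linear axes from 0, a scale for each gene) of the 6 genes in each library, with a line joining the vehicle and NGPF2 culture of each replicate. Vamp1, Cplx1 and Cplx2 slope upward in replicates 2 and 3 and are nearly level in replicate 1, while Snap25 and Vamp2 are nearly level in all 3.

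The first comparison asked whether the genes differed between NGPF2 and vehicle over all 3 pairs. With limma and the replicate number as a block, 0 of the 6 passed an adjusted p of 0.05, and the share over all 16653 genes was 0%. At an unadjusted p under 0.05 there were 2 of the 6 (Cplx1 and Cplx2) and 2166 of all genes, and voom on the recovered counts also called none. Cplx1 averaged 18717 ± 6509 normalized counts with vehicle and 25972 ± 1349.7 with NGPF2 (SD, n = 3 each). Its log2 difference was 0.52 (SE 0.19, limma adjusted p = 0.379). Cplx2 averaged 26942 ± 11542 and 39162 ± 21581, with a log2 difference of 0.43 (SE 0.15, limma adjusted p = 0.379). Vamp1 differed by 0.38 (SE 0.19, limma adjusted p = 0.410) and Stx1a by 0.17 (SE 0.09, limma adjusted p = 0.433). Snap25 and Vamp2 differed by 0.07 (95% interval -0.17 to 0.32) and 0.06 (-0.18 to 0.31), signs that turned with quantile scaling, with scaling by library totals and with scaling to 14 pan-neuronal marker genes. The vehicle and NGPF2 groups overlapped for every member, and the share of all genes that overlapped was not counted. Without replicate 1, Vamp1, Cplx1 and Cplx2 passed. In replicates 2 and 3 fitted without a block, 21.1% of all genes passed.

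Within replicates 2 and 3, both complexins and Vamp1 rose with NGPF2. Cplx1 went from a mean of 14960 to one of 26126 normalized counts, a log2 difference of 0.80 (SE 0.07, limma adjusted p = 0.00428). Cplx2 went from 33601 to 51622, a difference of 0.62 (SE 0.06, limma adjusted p = 0.00517). Vamp1 went from 3157 to 4919, a difference of 0.63 (SE 0.10, limma adjusted p = 0.0160). These are fitted folds of 1.74, 1.54 and 1.55, and both pairs had the same direction. With no filter on low values none of the 3 passed, and without limma's variance trend Vamp1 did not. Stx1a was 0.23 higher on the log2 scale (95% interval 0.07 to 0.39, limma adjusted p = 0.0556) and did not pass. Its sign turned with scaling to pan-neuronal markers. Snap25 and Vamp2 were each 0.10 higher (95% intervals -0.07 to 0.27 and -0.06 to 0.25, limma adjusted p = 0.338 and 0.302), with signs that turned under the same scalings as over 3 pairs. For all 6 genes both NGPF2 values lay above both vehicle values within these replicates, as they did for 32.3% of all genes.

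The count of 3 rising members of 6 stands beside 21.1% of all genes called in either direction and 9.77% called higher in replicates 2 and 3. Of all genes tested, 1627 were higher and 1884 lower, and the split was 982 to 2664 with library total scaling and 458 to 6343 with pan-neuronal scaling. Scaled to pan-neuronal markers, an alternative chosen after the data were seen, Cplx1 and Cplx2 still rose (0.43 and 0.25), Vamp1 missed the threshold at 0.26, and Snap25 and Vamp2 fell by 0.27 each. Without vehicle replicate 2 or vehicle replicate 3, the lone vehicle library was assumed to vary like the NGPF2 libraries. Such a fit cannot tell whether the calls in replicates 2 and 3 rested on both vehicle cultures. Over all alternatives, these fits included, the log2 difference was at least 0.26 for Vamp1, 0.43 for Cplx1 and 0.25 for Cplx2.

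**Figure D2:**
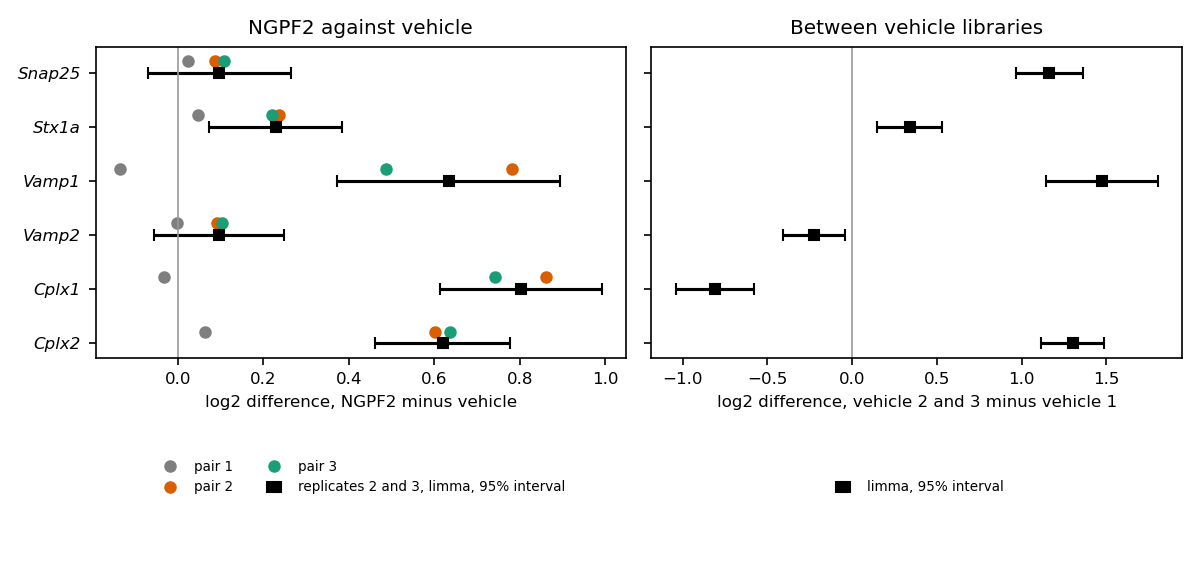
Left, log2 differences (NGPF2 minus vehicle) of each pair as coloured points and of replicates 2 and 3 as black squares with 95% intervals from limma; right, log2 differences between vehicle replicates 2 and 3 and vehicle replicate 1 with 95% intervals. The pair 1 points lie near 0 for all 6 genes, and the intervals of Vamp1, Cplx1 and Cplx2 on the left lie wholly above 0, as does that of Stx1a, which did not pass after adjustment.

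An interaction with the library name stem tested whether NGPF2 minus vehicle differed between replicates 2 and 3 and replicate 1. Cplx1 passed, with a log2 difference 0.83 larger in replicates 2 and 3 (SE 0.13, limma adjusted p = 0.0493). Cplx2 (0.56, limma adjusted p = 0.0668) and Vamp1 (0.77, limma adjusted p = 0.106) did not. For Stx1a the interaction was 0.18 (95% interval -0.09 to 0.45), for Snap25 0.07 (-0.21 to 0.35) and for Vamp2 0.10 (-0.16 to 0.36); all 3 signs turned with pan-neuronal scaling, and those of Snap25 and Vamp2 also with quantile and library total scaling. That 1 member passed stands beside 2.49% of all genes called, and 0.721% called larger. Over all genes 120 were larger and 295 smaller, against 89 and 1227 with pan-neuronal scaling. Replicate 1 has 1 library per group, and the Cplx1 call is close to the threshold. It was lost with a pseudocount of 0.5, with no filter on low values (where Cplx2 passed instead), without limma's variance trend, with pan-neuronal scaling, and without vehicle replicate 2 or 3.

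Levels in the vehicle cultures were compared between the replicates as well. Against vehicle replicate 1, vehicle replicates 2 and 3 had 2.78-fold more Vamp1, 2.47-fold more Cplx2, 2.24-fold more Snap25 and 1.27-fold more Stx1a, whereas Cplx1 was 1.75-fold lower. The log2 differences were 1.48 (SE 0.13) for Vamp1, 1.30 (SE 0.07) for Cplx2, 1.16 (SE 0.08) for Snap25 and 0.34 (SE 0.07) for Stx1a, with limma adjusted p of 0.00413, 0.00174, 0.00229 and 0.0360. Cplx1 fell by 0.81 on that scale (SE 0.09, limma adjusted p = 0.00697), and Vamp2 was at -0.23 (SE 0.07, limma adjusted p = 0.0910). Of the 6 genes, 4 were thus higher and 1 lower, beside 10.5% and 9.42% of all genes (19.9% in either direction). This sets 2 libraries against 1, with the spread taken from replicates 2 and 3 of both groups, so experiment, library preparation and depth cannot be told apart. No member passed without vehicle replicate 2 or 3, and Cplx1 and Stx1a did not without the variance trend.

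Vehicle replicates 2 and 3 enter both this comparison and that with NGPF2, so the differences of a gene in the 2 comparisons are not independent. In NGPF2 replicates 2 and 3, Cplx1 (27449 and 24803) was near its level in both replicate 1 cultures (26231 and 25664). Vamp1 and Cplx2 were instead highest in NGPF2 replicates 2 and 3. Over all 6 libraries, the log2 range was 2.37 for Vamp1, 1.92 for Cplx2 and 1.29 for Snap25. It was 0.89 for Cplx1, 0.59 for Stx1a and 0.23 for Vamp2. The median range was 0.66 over genes with a mean of at least 100 normalized counts.

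Markers of neuron classes moved between the vehicle cultures too. Summed over 10 inhibitory markers, the level was 119615 normalized counts in vehicle replicate 1 and 49526 and 53429 in replicates 2 and 3, and 8 of the 10 were lower and 1 higher in limma's test. Gad1, a GABA-synthesizing enzyme, stood at 47717, 23655 and 25827. The sum of 10 excitatory markers was 36999, 116109 and 115129, with 3 of 10 higher and 2 lower. The 3 that were higher, Camk2a, Nrgn and Slc17a7 (the last named after its values were seen), made up most of that sum in each library, and the median log2 difference of the list was -0.11, in the other direction. Camk2a, the kinase subunit of excitatory neurons, stood at 12518, 53272 and 47771. The ratio of Cplx1 to Cplx2 was 1.93 in vehicle replicate 1 and 0.444 and 0.447 in vehicle replicates 2 and 3. Non-neuronal markers differed as well in this comparison. Of 10 astrocyte markers, 7 were higher and 0 lower (median log2 difference 1.00), and of 9 oligodendrocyte lineage markers 3 were higher. Fibroblast and mural markers were lower in 5 of 8 (median -2.36), and microglial markers in 2 of 8. The part of these markers in the SNARE and complexin values was not tested.

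Paralog pairs were compared as ratios of normalized counts, which need no gene length for a change between libraries. The ratio of Vamp1 to Vamp2 was 0.0286, 0.0916 and 0.0944 with vehicle and 0.0260, 0.148 and 0.123 with NGPF2. Cplx1 to Cplx2 stood at 1.80, 0.531 and 0.481 with NGPF2. Snap25 to Snap23, the widely expressed relative of SNAP-25, was 150, 370 and 308 with vehicle and 176, 1489 and 699 with NGPF2. Vamp1 to Vamp2 and Cplx1 to Cplx2 thus differed more between replicate 1 and the others than between treatments.

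Over 3 pairs the mean log2 change with NGPF2 was 0.31 ± 0.42 for Vamp1 to Vamp2, 0.09 ± 0.18 for Cplx1 to Cplx2 and 1.13 ± 0.87 for Snap25 to Snap23 (SD, n = 3 pairs). The exact permutation p (2-sided, 6 libraries) was 0.6, 0.6 and 0.3 for these 3 ratios, where 3 against 3 cannot go below 0.1. With signs exchanged within pairs the exact p was 0.5, 0.5 and 0.25, and 0.25 is the smallest that 3 pairs allow. None of these 3 ratios was thus shown to differ between the groups. The ratio of Snap25 to Snap23 was higher with NGPF2 in each of the 3 pairs. Within pairs 1, 2 and 3, Snap25 itself differed by 1.02-fold, 1.06-fold and 1.08-fold, and Snap23 by 0.866-fold, 0.264-fold and 0.476-fold. Snap23 had only 29 and 43 counts in NGPF2 replicates 2 and 3, so the larger ratios there rest mainly on a low Snap23.

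**Figure D3:**
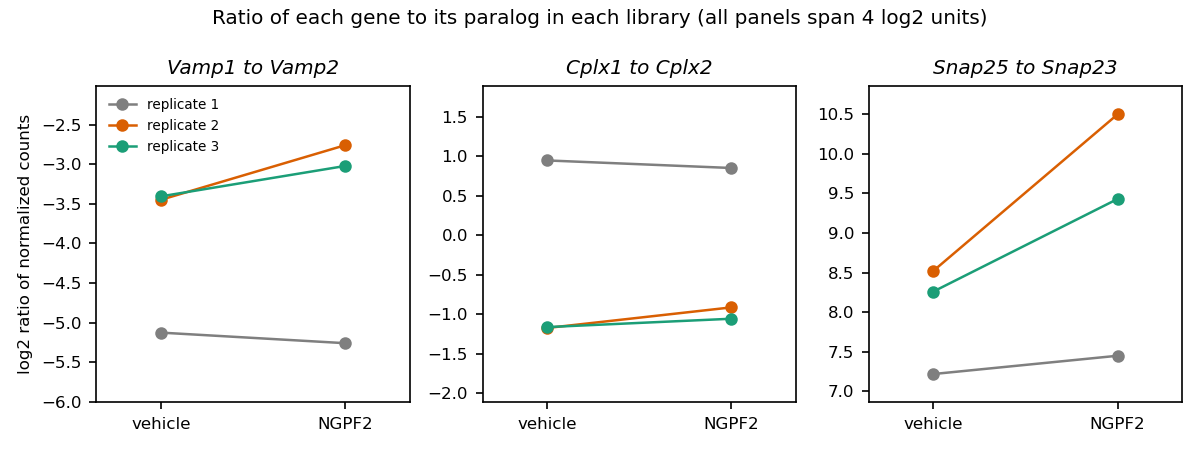
Log2 ratio of normalized counts of each gene to its paralog in each library, every panel spanning 4 log2 units, with a line joining the cultures of a replicate. Replicate 1 stands apart for Vamp1 to Vamp2 and Cplx1 to Cplx2, and for Snap25 to Snap23 the NGPF2 cultures of replicates 2 and 3 are highest.

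Levels of different genes were compared per kilobase. Per kilobase of annotated exon, Vamp1 ran from 102 to 527 normalized counts over the 6 libraries, Stx1a from 1807 to 2722, and Cplx2 from 2765 to 10485. Snap25 ran from 3243 to 7939, Vamp2 from 8890.4 to 10427 and Cplx1 from 6772 to 12539.7. Vamp1 was the lowest and Stx1a the next in all 6 libraries, with either exon length or the median length of annotated coding transcripts. The order of the other 4 genes depended on the length used, and by exon length their ranges over libraries overlapped, save those of Snap25 and Vamp2. By exon length Cplx1 led in both replicate 1 libraries and in NGPF2 replicates 2 and 3, and Vamp2 in vehicle replicates 2 and 3. By transcript length Vamp2 led in replicate 1 and Snap25 in replicates 2 and 3.

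Genes of like pattern were sought among 11946 genes with a mean of at least 100 normalized counts, by the root mean square difference between log2 profiles over the 6 libraries, each centred on its own mean. The 3 nearest to Cplx2 were Hivep2, a zinc finger transcription factor (0.033), Rbfox3 (0.059) and Camkk2, a calcium-dependent kinase (0.068). Rbfox3, which encodes the neuronal nuclear antigen NeuN, stood at 2551, 6979 and 6771 normalized counts with vehicle and at 2939, 10769 and 9859 with NGPF2. Nearest to Cplx1 were Scrt2 (0.027), Crmp1 (0.030) and C1qtnf4 (0.038). Crmp1, a collapsin response mediator, stood at 26893, 15917 and 15311 with vehicle and at 27934, 29072 and 26702 with NGPF2. Like Cplx1, it was low in vehicle replicates 2 and 3 alone.

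Near Vamp1 were Syndig1 (0.081) and Mapk11 (0.086), and nearest to Snap25 were Gpd1 (0.030), Hey1 (0.032) and St3gal5 (0.043). Stx1a had Cndp2 (0.014), Fam155a (0.017) and Znhit2 (0.022), and Vamp2 had Cers6 (0.016), Canx (0.017) and Babam2 (0.021). Against all genes searched, the median distance ran from 0.26 for Vamp2 to 0.94 for Vamp1. Among the members themselves, Vamp1 and Cplx2 were closest (0.163) and Vamp1 and Cplx1 farthest apart (1.07). The complexins lay 0.934 from each other. All of these distances share the same 6 libraries and their size factors.

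The other genes of the release machinery were counted in replicates 2 and 3 by list, beside 9.77% of all genes that rose and 11.3% that fell. These shares of all genes also stand beside the marker counts further on. Of 27 other SNAREs kept (28 listed; Vamp7 was not analysed here), 2 rose and 2 fell, counts no higher than those shares, with a median log2 difference of -0.07. Snap47, a relative of SNAP-25, rose by 0.31 (limma adjusted p = 0.0491). Vamp3, the broadly expressed cellubrevin, fell by 1.46 (417, 662 and 577 with vehicle, 384, 210 and 239 with NGPF2; limma adjusted p = 0.00445), and Bet1, of transport from endoplasmic reticulum to Golgi, fell by 1.05. Snap23 was at 147, 131 and 162 with vehicle and 127, 34.7 and 77.2 with NGPF2, and did not pass (-1.48, limma adjusted p = 0.0633).

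Of 20 priming and Sec1/Munc18 genes, 3 rose and 4 fell, with a median of 0.13. Cadps, a priming factor of dense-core and synaptic vesicles, rose by 0.43, and Vps33a, of the complex that tethers late endosomes and lysosomes, by 0.48. Cadps2, the paralog of Cadps, fell by 1.07. Stxbp3, the broadly expressed Munc18 relative, fell by 1.73 (limma adjusted p from 0.00422 to 0.0189 for these 4). Unc13a, which opens syntaxin for assembly, stood at 13986, 18570.2 and 19552 with vehicle and 14134, 28578 and 23269 with NGPF2 and missed the threshold (0.44, limma adjusted p = 0.0508).

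Among 12 calcium sensors and vesicle partners kept of 13, 1 rose and 2 fell, with a median of -0.06. Syt2, a fast calcium sensor, rose by 2.87 (27.1, 489 and 246 normalized counts with vehicle, 51.8, 1802 and 3566 with NGPF2; limma adjusted p = 0.0140). Syt9, of the same family, fell by 1.01 and Doc2b, a high-affinity calcium sensor, fell by 0.57. Syt1, the main sensor of the forebrain, was 0.17 higher (limma adjusted p = 0.256), and Cplx3, a complexin best known from retina, 0.51 lower (limma adjusted p = 0.194). Neither passed.

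Of 9 disassembly and chaperone genes kept of 10, 4 rose and 0 fell, with a median of 0.15. These were Nsf, the ATPase that takes spent SNARE complexes apart (0.30, limma adjusted p = 0.0449), Dnajc5 (0.24) and Sgta (0.34), which chaperone SNAP-25, and Sncb, beta-synuclein (0.37). Scaling to pan-neuronal markers moved the median gene by -0.37 in these replicates, a shift at least as large as each of these 4 rises. The pathway lists were not counted again with that scaling. Napb, the neuronal SNAP cofactor of NSF, was at -0.09 (limma adjusted p = 0.358). None of these pathway genes passed over 3 pairs or in the interaction. The 6 members had a median of 0.42 and all genes kept a median of 0.00. No list was tested against other genes.

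**Figure D4:**
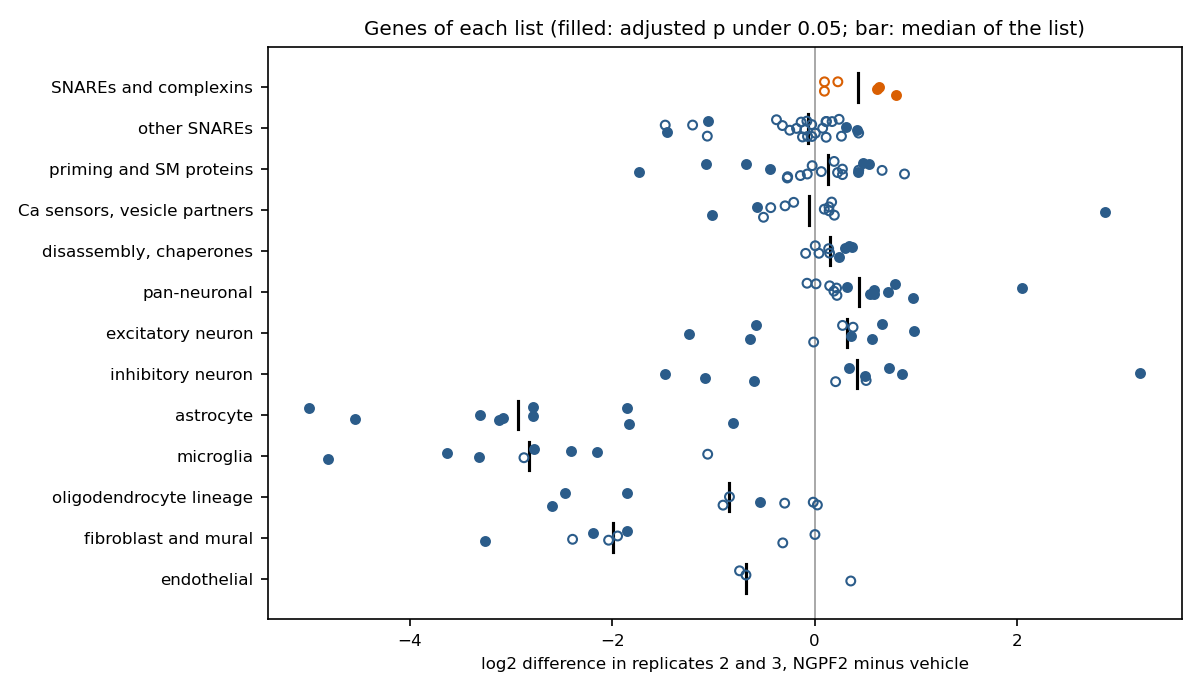
Log2 differences (NGPF2 minus vehicle, replicates 2 and 3) of each gene kept in each list; filled points passed an adjusted p of 0.05 in limma, bars are list medians and vertical scatter within a row has no meaning. The 6 SNAREs and complexins lie between 0.10 and 0.80, and all 10 astrocyte markers lie below 0.

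Cell type markers moved in the same replicates, although none of them passed over 3 pairs. Of 14 pan-neuronal markers, 8 rose and 0 fell, and pairs 1, 2 and 3 had a median of -0.01, 0.43 and 0.41 on the log2 scale, near the medians of the 6 members (0.01, 0.42 and 0.35). Stmn2, a tubulin-binding protein of growing axons, stood at 37256, 27742 and 26787 normalized counts with vehicle and 36088, 45369 and 45069 with NGPF2. Map2, of dendritic microtubules, did not pass (-0.07, limma adjusted p = 0.548). In the excitatory list 4 of 10 rose and 3 fell, and in the inhibitory list 5 of 10 rose and 3 fell.

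All 10 astrocyte markers fell in replicates 2 and 3. Pair 1 had a median of 0.02 on the log2 scale, whereas pairs 2 and 3 had -3.09 and -2.94. Their summed level was 22372, 61346 and 54956 normalized counts with vehicle and 25914, 17407 and 14300.5 with NGPF2. Slc1a3, an astrocytic glutamate transporter, stood at 7502, 11117 and 9824 with vehicle and 7603, 1598 and 1445 with NGPF2. None of the astrocyte markers was at 0 in any library. Among the others, 6 of 8 microglial, 4 of 9 oligodendrocyte lineage, 3 of 8 fibroblast and mural and 0 of 3 endothelial markers kept fell, and none rose. Those with 0 counts in at least 1 library were Itgam, Cx3cr1 and Aif1 (microglia), Lum (fibroblast) and Kdr (endothelial). The part of these shifts in the SNARE and complexin values was not tested, beyond the scaling to pan-neuronal markers given above.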

How the data were processed

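The deposited table holds log2 values: raised as a power of 2 and less 1, 100% of each library's values came out as whole multiples of a single step (tolerance 0.01), so the authors deposited log2 of a size-factor normalized count plus 1, although its name says FPKM. The inverse steps equal median-of-ratios size factors. Named in the submitters' processing notes, with no role, are mm10, DESeq 1.22.1, Cuffnorm, STAR 2.5 and FastQC. Which annotation, counter and strand setting were used is not given in the sources used here. Symbols came from GENCODE M21 (31185 identifiers, 60 without).

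The column of replicate 1 in each group was assigned by its initial and by elimination, although its name carries the digit 3. A mean of at least 10 normalized counts was required of a gene (16653 passed). The fits used limma 3.58.1 in R 4.3.3 (empirical Bayes with a trend, 2-sided, Benjamini-Hochberg over all genes kept, threshold 0.05), and were tested on simulated data. The 4 fits were the 3 pairs with the replicate block, replicates 2 and 3 alone (2 against 2, no block), the interaction with the library name stem, and vehicle replicates 2 and 3 against vehicle replicate 1. Here "rose" and "fell" mean an adjusted p under 0.05. P-values take the cultures as independent, as the series' statement of separate experiments has it. Deviations from group means correlated across genes at 0.594, 0.299 and 0.333 for same-numbered libraries 1, 2 and 3, and at 0.342 and 0.320 for 2 and 3 crossed. The members and gene lists were chosen with earlier results of these data known. Besides members, the named genes are the 3 nearest patterns of each, the 4 of smallest p per pathway list (with Snap23, Vamp3, Unc13a, Nsf, Napb, Syt1 and Cplx3), and from marker lists up to the 2 of highest level. Some genes that this rule takes in are not reported here. Alternatives covered pseudocount, filter, scaling, trend, voom, block and left-out libraries.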

Additional observations from a re-analysis of the deposited data

Results flagged for a closer look

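Replicates 2 and 3 share a library name stem that replicate 1 lacks. Cplx1 narrowly passed the test of whether NGPF2 minus vehicle differed between these replicates and replicate 1. Its log2 difference was 0.83 larger in replicates 2 and 3 (95% interval 0.51 to 1.16, limma adjusted p = 0.0493), where the fold within pairs was 1.82 and 1.67, against 0.978 in replicate 1. The same test called 3 of 14 pan-neuronal markers larger and 8 of 10 astrocyte markers smaller, with 0 the other way in either list. It called 1 larger and 1 smaller among 10 excitatory markers, and likewise among 10 inhibitory markers. Of all genes, 0.721% were called larger and 1.77% smaller. Cplx1 was higher with NGPF2 in 2 of 3 pairs, and replicate 1 has 1 library per group. It did not pass with a pseudocount of 0.5, with no filter on low values, without the trend, with pan-neuronal scaling, or without vehicle replicate 2 or vehicle replicate 3.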

How the results depend on the processing

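Over the 3 pairs, leaving out a replicate gave 0 to 3 members called, 3 (Vamp1, Cplx1 and Cplx2) without replicate 1, when 3275 genes passed in place of 0; 1 gene passed with a pseudocount of 8, and 1 with no replicate block, which called 0 members. With a replicate block, replicates 2 and 3 gave the same 3 members and the interaction the same 1, so the pairing changed no other call. Leaving out a library gave 0 to 3 members in replicates 2 and 3, 0 to 1 in the interaction and 0 to 5 among vehicle cultures. Each 0 came without vehicle replicate 2 or 3, when 0 genes passed in place of 3511 and 415, and 1 or 0 in place of 3322. In replicates 2 and 3, no filter on low values left 0 members and 1074 genes. Without the trend 2 members (Cplx1 and Cplx2) and 1535 genes passed, pan-neuronal scaling gave 6801 genes, and a mean of at least 50 added Stx1a. The interaction called 0 members with a pseudocount of 0.5, without the trend (22 genes) and with pan-neuronal scaling (1316 genes). It called 2, Cplx1 and Cplx2, with a mean of at least 50 (733 genes) and with voom (1368 genes), and with no filter Cplx2 was called in place of Cplx1, among 4684 genes. Among vehicle cultures, 3 members and 1232 genes passed without the trend, voom gave 4999 genes, and quantile scaling and voom added Vamp2. The cause of these changes was not tested.

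Signs turned for 3 members under other scalings. With quantile scaling, Snap25 was at -0.065 over 3 pairs, -0.12 in replicates 2 and 3 and -0.15 in the interaction, and Vamp2 at -0.13, -0.19 and -0.19. With library totals, Snap25 was at -0.012, -0.029 and -0.052, and Vamp2 at -0.021, -0.030 and -0.027. With pan-neuronal scaling, Snap25 was at -0.18, -0.27 and -0.29, Stx1a at -0.081, -0.14 and -0.18, and Vamp2 at -0.19, -0.27 and -0.26. Against the deposited scaling, the median gene moved by -0.13 (library totals), -0.37 (pan-neuronal) and 0.08 (quantile) between NGPF2 and vehicle in replicates 2 and 3. Vamp1, Cplx1 and Cplx2 kept their sign in each comparison under all alternatives run. Leaving out replicate 1 from the interaction or the vehicle comparison, and a block in the latter, could not be fitted.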

Other observations

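Among the other genes of release, vehicle replicates 2 and 3 differed from vehicle replicate 1 as well. Of 27 other SNAREs, 6 were higher and 0 lower, beside 10.5% and 9.42% of all genes. Nsf was 1.42-fold higher (limma adjusted p = 0.0196). Of 20 priming and Sec1/Munc18 genes, 2 were higher and 4 lower, among the latter Cadps (log2 difference -0.62, limma adjusted p = 0.0127). Syt2 was 13.6-fold higher (limma adjusted p = 0.0150). These values set 2 libraries against 1.

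With Vamp1 and Syt2, 2 marker genes chosen after their values were seen were higher in NGPF2 replicates 2 and 3. Neither passed over 3 pairs (limma adjusted p = 0.379 for both Nefh and Pvalb). Pvalb is from the inhibitory list, of which 5 rose and 3 fell in replicates 2 and 3. Those that fell, also named after their values were seen, were Sst, Npy and Vip (log2 difference -1.08, -1.48 and -0.60). Nefh, the heavy neurofilament of large axons, stood at 2512, 3031 and 3115 normalized counts with vehicle and 2393, 12693 and 12709 with NGPF2 (log2 difference 2.05 in replicates 2 and 3, limma adjusted p = 0.000613). Pvalb, the calcium buffer of fast-spiking interneurons, stood at 54.2, 46.4 and 48.9 with vehicle and 41.6, 419.6 and 488 with NGPF2 (3.22, limma adjusted p = 0.00148). Between vehicle replicates 2 and 3 and vehicle replicate 1, Nefh differed by 0.29 (95% interval 0.10 to 0.48, limma adjusted p = 0.0559) and Pvalb by -0.18 (-0.79 to 0.43, limma adjusted p = 0.640).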
